A study of Homo sapiens with 24 samples.

Results

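PC9 cells given 0.3 nM paclitaxel for 24 h were compared with PC9 control cells, gene by gene over the whole table. The 6 libraries were chosen by their labels alone, 3 labelled control and 3 labelled paclitaxel, out of 24 libraries in the series. The series holds PC9 and H1975, each as control, with paclitaxel, with almonertinib and with both drugs, in 3 repeats per group and all collected at 24 h. For comparison, PC9 with 2 nM almonertinib and H1975 as control and with 1 nM paclitaxel are used below, so the paclitaxel dose differs between the lines. The labels do not say what the controls received, whether cultures were pooled, or whether repeats are separate cultures. The p-values therefore measure only how far these samples spread, and that spread may be technical.

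PC9 is an established line from a lung adenocarcinoma with an activating deletion in EGFR, and H1975 is a lung adenocarcinoma line with other EGFR mutations. Almonertinib inhibits mutant EGFR. Paclitaxel binds beta tubulin inside assembled microtubules and stops them from shortening, so that spindles cannot pull chromosomes properly. Cells may then be held at the spindle assembly checkpoint or divide with missegregated chromosomes and micronuclei. Alpha and beta tubulin messages are known to be degraded when free tubulin dimers increase and spared when dimers are taken up into polymer.

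The control libraries held 15708473 to 20358899 counted reads and the paclitaxel libraries 18625105 to 21841967. Levels below are CPM, reads of a gene per 1e+06 reads of the library, scaled with TMM factors, always in the order of libraries 1, 2 and 3. CPM are not divided by transcript length, so they serve to compare libraries within a gene. Changes are log2 fold changes of paclitaxel over control with their approximate standard error, and a gene is called when its edgeR quasi-likelihood p-value, Benjamini-Hochberg adjusted over 12796 genes, is under 0.05. Epithelial keratins KRT8 and KRT18 were abundant in all 6 libraries, whereas NKX2-1 and NAPSA, which mark lung adenocarcinoma cells, had only 122 and 96 reads over the 6 libraries. PTPRC and CD3E of leukocytes, COL1A2, DCN and LUM of fibroblasts and KDR of endothelium were at 0. Control library 1 stood apart from the other controls: the chi-square per gene was 14.4 and 15.9 against controls 2 and 3, and 3.78 between those.

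The 2 groups differed across most of the transcriptome. Of 12796 genes, 3450 were called higher, 27.0% of those tested, and 3588 were called lower, 28.0%. When all 24 libraries of the series shared the estimate of spread, 2871 were called higher and 2187 lower. The groups did not overlap in 6894 of the 7038 called genes. Changes were mostly small, with a median absolute log2 fold change of 0.62 among called genes and quartiles of -0.35 and 0.50 over all genes. In messages from whole cultures, fewer cells of a kind and less RNA per cell cannot be told apart.

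The direction of change followed transcript length and, more steeply, base composition. Genes called higher had a median transcript length of 4509 bases and a median GC content of 42.0%, against 2716 bases and 55.8% in genes called lower. The genes were ordered by GC content and cut into 10 bins of equal size. In the bin of lowest GC content the median log2 fold change was 0.81, with 66.7% called higher and 2.97% called lower. In the bin of highest GC content the median was -0.24, with 9.93% called higher and 42.2% called lower. In 10 such bins by length, the bin of shortest transcripts had a median of -0.27 and the longest 0.43.

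**Figure D1:**
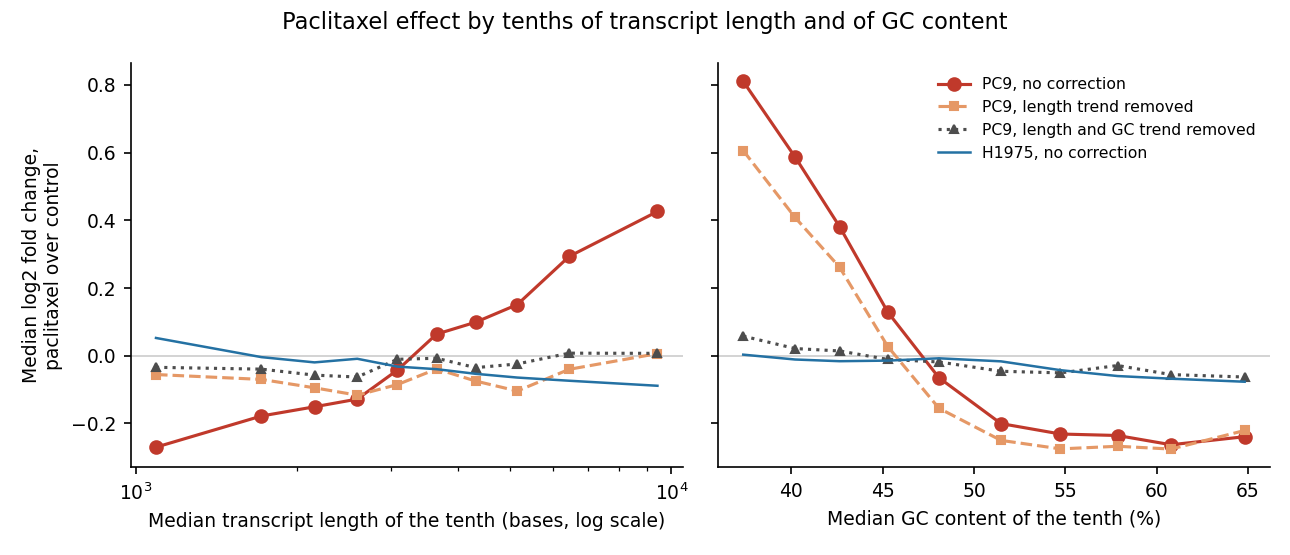
Median log2 fold change of paclitaxel over control in 10 equal bins of the tested genes, ordered by transcript length (left, bases on a log scale) and by GC content (right, percent). The uncorrected PC9 line climbs from -0.27 to 0.43 over length and drops from 0.81 to -0.24 over GC content, while the line with both trends removed stays between -0.06 and 0.06 and the H1975 line between -0.09 and 0.05.

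The same slope stood in the single libraries. Spearman's rho between GC content and a gene's deviation from its mean was 0.17, 0.20 and 0.38 in the controls and -0.59, -0.60 and -0.43 in the paclitaxel libraries. For transcript length it was -0.14, -0.16 and -0.24 in the controls and 0.33, 0.29 and 0.27 with paclitaxel. These are descriptions across genes, which are not independent. Every paclitaxel library thus lay on the other side of 0 from every control. Because the slope follows the groups, an effect of the drug on long, AT-rich messages and a difference in library preparation cannot be told apart here. Removing the length trend alone left the bin of lowest GC content at 0.61.

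Removing both trends kept the number of calls similar but changed many of the genes. With length alone removed, 2912 genes were called higher (22.8%) and 4164 lower (32.5%). With length and GC content removed, 2911 were called higher (22.7%) and 3782 lower (29.6%). Of the genes called before, 2103 of 3450 stayed higher and 2803 of 3588 stayed lower, 1259 and 785 lost their call, and 88 turned from higher to lower. The excess of large rises also went: before correction 1245 called genes had risen 2-fold or more and 376 had fallen as far, and after it 499 and 421. For the comparison with control, counts or medians with both trends removed are therefore given below beside those of the lists, and values for some of the genes. The list counts for that comparison stand beside 27.0% higher and 28.0% lower over all genes, or 22.7% and 29.6% with both trends removed. List counts against almonertinib, in H1975 and between the lines are without this correction.

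The genes that moved most against the length slope were read first. Among the shorter transcripts, the lowest 25% by length, with a mean of at least 5 CPM and no overlap of the groups, the largest rises were of TNFSF10, IFITM1, CA9, IFITM2 and SLC15A3. TNFSF10, the death ligand TRAIL, was 1.35, 2.75 and 1.18 CPM in the controls and 15.1, 14.9 and 13.2 CPM with paclitaxel, a log2 fold change of 3.05 ± 0.23. CA9, a carbonic anhydrase of the cell surface that is induced in hypoxia, was 4.48, 6.98 and 6.26 CPM and 30.3, 40.1 and 36.5 CPM, a log2 fold change of 2.61 ± 0.51. SLC15A3, a lysosomal transporter of histidine and peptides, was 7.29, 11.8 and 15.4 CPM and 67.4, 64.3 and 68.7 CPM, a log2 fold change of 2.55 ± 0.18. TNFSF10 has a GC content of 40.2%, so the GC slope runs with its rise, and 2.59 remained with both trends removed.

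Among the longer transcripts, the highest 25% by length, and by the same conditions, the largest falls were of COL17A1, FN1, PLCG2, SNPH and ZC3HAV1. COL17A1, the collagen of hemidesmosomes, was 24.1, 23.2 and 23.8 CPM in the controls and 3.82, 3.77 and 3.30 CPM with paclitaxel, a log2 fold change of -2.70 ± 0.13, and -2.62 with both trends removed. FN1, which encodes the matrix protein fibronectin, was 3256, 4729 and 5206 CPM and 846, 817 and 759 CPM, a log2 fold change of -2.44 ± 0.15. ZC3HAV1, the antiviral protein ZAP that binds CpG-rich RNA, was 213, 271 and 256 CPM and 78.6, 77.4 and 68.1 CPM, a log2 fold change of -1.72 ± 0.12. The fall of ZC3HAV1 grew to -2.09 with the trends removed.

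The drug's own target family fell. Of 12 alpha and beta tubulin genes tested, 8 were called lower and 1 higher, against the 28.0% called lower over all genes, and the median was -0.70 against -0.01 over all genes tested. With both trends removed 7 were lower and the median was -0.48. Calls also followed abundance, and TUBB, TUBA1B, TUBA1C and TUBA4A are in the top 10% of genes by mean CPM. In that top 10%, 56.1% were called lower, with a median of -0.29. With both trends removed it was 44.1%, with a median of -0.12. The summed level of the family was 7449 to 8417 CPM in the controls and 5618 to 6110 CPM with paclitaxel.

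TUBA4A, an alpha tubulin, was 474, 418 and 451 CPM in the controls and 252, 257 and 288 CPM with paclitaxel, a log2 fold change of -0.75 ± 0.12 and of -0.53 with the trends removed. TUBA1C, another alpha tubulin of dividing cells, was 1194, 1111 and 1181 CPM and 702, 709.8 and 764 CPM, a log2 fold change of -0.68 ± 0.10. TUBB2A, a beta tubulin, was 11.6, 10.9 and 11.7 CPM and 6.45, 5.35 and 6.06 CPM, a log2 fold change of -0.94 ± 0.19. Paclitaxel libraries were low and controls high in each, with no overlap.

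TUBA1B fell less, from 2465, 2107 and 2191 CPM to 1656, 1557 and 1721 CPM, a log2 fold change of -0.45 ± 0.11. TUBB, the main beta tubulin of most dividing cells, was 2828, 2472 and 2664 CPM and 2299, 2273 and 2406 CPM, and its log2 fold change of -0.19 ± 0.11 was not called (edgeR adjusted p = 0.163) although the groups did not overlap. TUBB2B was called lower at -0.87 ± 0.30 and TUBB4A called higher at 1.28 ± 0.52, but both lay under 3 CPM and the groups overlapped for TUBB4A. The call of TUBB2B was lost without control 3, paclitaxel 1 or paclitaxel 2, and that of TUBB4A without control 1, control 2, paclitaxel 2 or paclitaxel 3. TUBB3, the beta tubulin often discussed in taxane resistance, was 1.04, 1.48 and 0.765 CPM and 1.10, 0.730 and 0.788 CPM and was not called. TUBA1A, at 9.59, 17.3 and 15.4 CPM and 11.6, 15.0 and 14.3 CPM, overlapped between the groups. Reads of near-identical tubulin genes may have been split or shared in counting, so single members are less certain than the family.

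**Figure D2:**
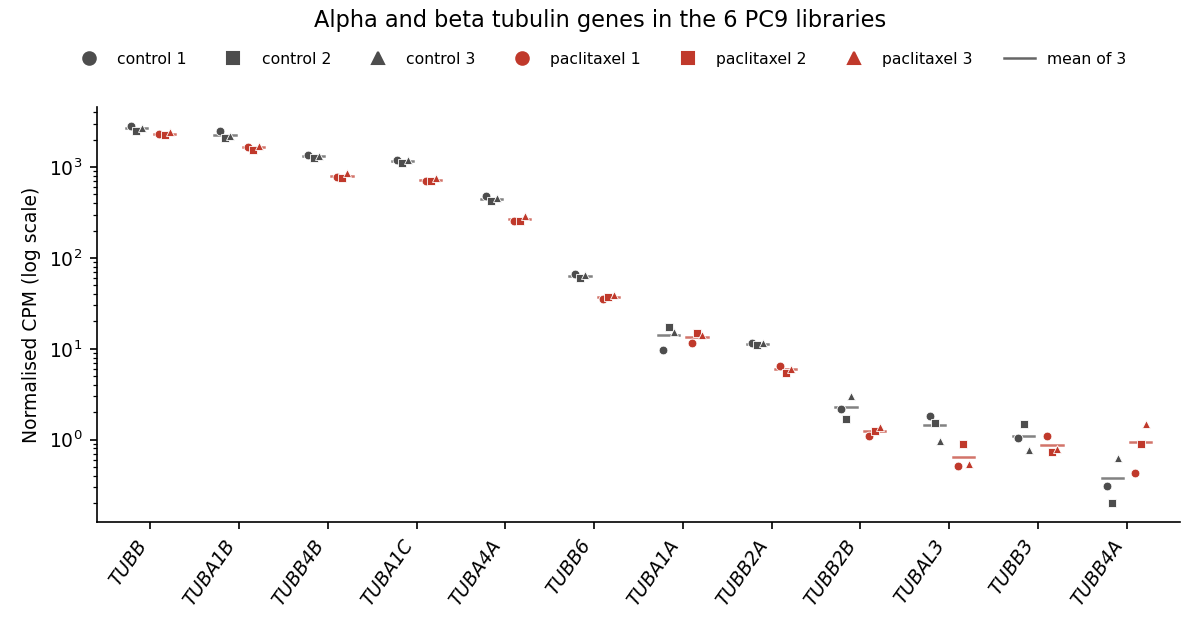
Normalised CPM (log scale) of the 12 tested alpha and beta tubulin genes in each of the 3 control (grey) and 3 paclitaxel (red) PC9 libraries, with a bar at each mean. The paclitaxel points of TUBA4A, TUBA1C, TUBB4B and TUBB6 lie below all control points, those of TUBA1A and TUBB3 overlap with them, and TUBB4A is at or below 1.48 CPM in every library.

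Of 21 genes that fold tubulin or regulate its messages, 3 were higher and 7 lower, against 27.0% and 28.0% over all genes, and 1 and 8 with the trends removed. CCT7, a subunit of the chaperonin that folds tubulin and actin, fell from 752, 645 and 694 CPM to 488, 463 and 465 CPM (-0.56 ± 0.10), and CCT3 fell as well (-0.47 ± 0.10). CCT8 of the same complex rose from 30.8, 29.6 and 21.6 CPM to 45.4, 45.2 and 43.2 CPM (0.70 ± 0.13). CCT8 has a GC content of 43.1% and CCT7 of 51.3%, but both kept their call with the trends removed, at 0.46 and -0.36.

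Proteins that take microtubules apart leaned the other way from tubulin. Of 11 destabilising and severing proteins tested 7 were called higher and 1 lower, against 27.0% and 28.0% over all genes, with a median of 0.44. With the trends removed 6 were higher and 1 lower, against 22.7% and 29.6%, with a median of 0.38. KIF2A, a kinesin that depolymerises microtubule ends, was 10.8, 9.60 and 7.37 CPM in the controls and 21.9, 21.6 and 19.4 CPM with paclitaxel (1.17 ± 0.20). KIF2C, its mitotic relative at centromeres, fell from 105, 98.6 and 111 CPM to 82.7, 83.2 and 83.3 CPM (-0.33 ± 0.08). Of 31 microtubule-associated and plus-end proteins, 11 were higher and 5 lower, against the same 27.0% and 28.0%. With the trends removed 9 were higher and 7 lower, against 22.7% and 29.6%, and the median went from 0.17 to 0.07. MTUS1 rose from 4.01, 5.03 and 5.14 CPM to 13.3, 13.9 and 13.8 CPM (1.54 ± 0.17), and MAPRE2, an end-binding protein, fell from 8.70, 9.47 and 9.66 CPM to 4.25, 3.93 and 4.04 CPM (-1.18 ± 0.16). In all these genes the groups were apart.

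Regulators of mitotic entry and exit were more often lower. Among 25 mitotic kinases, cyclins and their regulators 12 were called lower and 6 higher, against 28.0% and 27.0% over all genes. The median was -0.24 (-0.22 with the trends removed). Calls also followed abundance: in the top 10% by mean CPM, which holds CDC20 and UBE2S, 56.1% were called lower, with a median of -0.29. In the next 10%, which holds PLK1, 52.5% were, with a median of -0.27. PLK1, the kinase that drives mitotic entry and spindle assembly, was 195, 175 and 189.8 CPM in the controls and 91.6, 84.7 and 102 CPM with paclitaxel, a log2 fold change of -1.01 ± 0.09. CDC20, which activates the anaphase-promoting complex and is what the checkpoint inhibits, was 359, 318 and 345 CPM and 159, 156 and 179 CPM, a log2 fold change of -1.05 ± 0.10. UBE2S, the enzyme that extends ubiquitin chains for that complex, was 2134, 1964 and 2122 CPM and 1038, 1048 and 1252 CPM, a log2 fold change of -0.90 ± 0.13. CDC20 was counted with the spindle assembly checkpoint, where 8 of 13 genes were higher and 3 lower. UBE2S was counted with the anaphase-promoting complex and cohesin, where 16 of 33 genes were higher and 9 lower. Paclitaxel libraries were low and controls high in these genes, with no overlap.

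CDK1 went the other way without correction. This kinase, which triggers mitosis with cyclin B, was 39.8, 41.4 and 36.4 CPM in the controls and 72.8, 68.3 and 72.9 CPM with paclitaxel (0.86 ± 0.13). Its GC content is 37.0%, and with the trends removed the change was 0.22, still called. Of 32 kinetochore and centromere genes 11 were higher and 6 lower, against 27.0% and 28.0% over all genes, with a median of 0.26. Once the trends were removed 11 of the list were higher and 10 lower, with a median of 0.04. Of these, CENPA, the centromeric histone, fell from 29.6, 29.3 and 30.7 CPM to 20.6, 18.3 and 21.2 CPM (-0.58 ± 0.12). ZWINT, a kinetochore protein counted with the spindle assembly checkpoint, fell from 137, 129 and 128 CPM to 84.1, 93.1 and 96.3 CPM (-0.53 ± 0.10).

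Several lists of structural parts of the division apparatus had medians above 0 that moved towards 0 when the trends were removed. In the spindle assembly checkpoint list 8 of 13 were higher and 3 lower, against 27.0% and 28.0% over all genes, and 3 and 3 with the trends removed. Its median of 0.49 became 0.08. For mitotic kinesins the median went from 0.49 to 0.11, and for the anaphase-promoting complex and cohesin from 0.29 to 0.02. KNTC1, which recruits the dynein adaptor to kinetochores, was 2.97, 4.83 and 2.57 CPM in the controls and 10.8, 10.6 and 10.6 CPM with paclitaxel (1.63 ± 0.22, 0.97 with the trends removed). TTK, the kinase at the top of the checkpoint, rose from 4.06, 4.97 and 3.20 CPM to 9.59, 11.6 and 11.0 CPM (1.39 ± 0.24, then 0.90). STAG2, a cohesin subunit, was 13.2, 14.6 and 10.2 CPM and 44.0, 47.6 and 42.0 CPM (1.81 ± 0.21, then 0.97). Groups did not overlap in these genes, and each kept its call.

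Centrosome and centriole genes kept more of their rise. Of 30 tested, 25 were called higher and 1 lower, against 27.0% and 28.0% over all genes, with a median of 1.05. Once the trends were removed 19 of them stayed higher and the median of the list was 0.50. CCP110, the cap of the centriole's end, was 3.75, 2.42 and 1.67 CPM in the controls and 10.2, 10.1 and 9.65 CPM with paclitaxel (1.90 ± 0.25). CEP57, which keeps paired centrioles engaged, was 3.18, 2.69 and 2.09 CPM and 9.30, 9.69 and 7.93 CPM (1.74 ± 0.23). CNTROB, a centriole assembly protein, was the exception and fell from 57.1, 64.8 and 66.9 CPM to 40.4, 42.0 and 45.9 CPM (-0.56 ± 0.10). Homologous recombination and Fanconi genes followed the same pattern, with 22 of 36 higher and 1 lower and a median of 0.73 that became 0.39.

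NBN, the sensor of double-strand breaks in the MRN complex, was 4.48, 4.50 and 3.68 CPM in the controls and 14.2, 14.6 and 15.0 CPM with paclitaxel (1.78 ± 0.19, 1.03 with the trends removed). The replication list was milder, with 20 of 53 genes higher and 5 lower, and the same median of 0.14 before and 0.14 after. RFC1, of the clamp loader, was 21.3, 22.1 and 14.4 CPM and 47.9, 55.2 and 51.6 CPM (1.42 ± 0.17). FEN1, the flap nuclease that matures Okazaki fragments, was 113, 95.0 and 101 CPM and 82.8, 81.0 and 78.3 CPM (-0.35 ± 0.09), and its call was lost with the trends removed. Of 52 histone genes 3 were higher and 12 lower, both smaller shares than the 27.0% and 28.0% over all genes, and 4 and 11 with the trends removed. H2AC6 fell from 8.18, 15.0 and 10.3 CPM to 4.12, 6.04 and 4.53 CPM (-1.18 ± 0.20).

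Targets of p53, the stress-activated tumour suppressor, did not rise as a list. Of 29 tested 8 were higher, near the 27.0% over all genes, and 12 lower, against 28.0%, with a median of -0.18. Once the trends were removed 9 were higher and 12 lower, with a median of -0.14. CDKN1A, which encodes the cell cycle inhibitor p21, was 199.6, 272 and 267 CPM in the controls and 70.3, 74.3 and 76.5 CPM with paclitaxel, a log2 fold change of -1.74 ± 0.15. AEN, a nuclease induced by p53, was 106, 102 and 101 CPM and 33.7, 28.7 and 31.7 CPM, a log2 fold change of -1.72 ± 0.09. SERTAD1 was 50.8, 55.2 and 57.6 CPM and 20.5, 20.8 and 19.9 CPM, a log2 fold change of -1.42 ± 0.11. All 3 lay lower in every paclitaxel library. CDKN1B, encoding the inhibitor p27, rose from 33.4, 32.0 and 32.5 CPM to 54.6, 50.4 and 51.0 CPM (0.67 ± 0.09), and BTG2, an antiproliferative gene, rose from 4.69, 5.17 and 6.33 CPM to 9.85, 11.8 and 8.91 CPM (0.93 ± 0.16).

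Interferon-stimulated effector genes had the highest median of all the lists of 10 or more members. Interferons bind receptors that activate STAT2, which joins IRF9 in a complex that binds short response elements in promoters, and the products of these target genes block viruses or prime antigen presentation. Of 61 effectors tested 42 were called higher and 5 lower, with a median of 1.09, and 39 higher, 7 lower and a median of 0.92 with the trends removed. Without control 1, 40 were higher and 6 lower. LAMP3, a lysosomal membrane protein, was 8.96, 12.4 and 12.2 CPM in the controls and 79.4, 71.3 and 72.3 CPM with paclitaxel (2.74 ± 0.13). IFITM1, which keeps viruses from fusing at the cell surface, was 35.0, 61.5 and 81.1 CPM and 452, 422 and 485 CPM (2.94 ± 0.21), and IFITM2, a close copy, was 2.45, 4.03 and 6.12 CPM and 22.8, 25.6 and 26.1 CPM (2.59 ± 0.23). SP110, a nuclear body protein, was 15.1, 16.6 and 15.0 CPM and 55.4, 57.8 and 63.1 CPM (1.92 ± 0.12). Every paclitaxel library stood above every control in these genes. Control 1 was the lowest control for LAMP3, IFITM1 and IFITM2, and without it their log2 fold changes were 2.60, 2.67 and 2.29, all still called. IFITM1 and IFITM2, like LGALS9, SAA1 and the HLA genes below, have near-identical relatives, so their reads may have been shared or split.

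The response element was looked for in the promoters of these genes because the complex of STAT2 and IRF9 binds it. The windows run from 250 bases before to 50 after the RefSeq transcription start in GRCh38.p14, and the letters searched on both strands were GAAANNGAA. A match was in 33 of 48 effector promoters (68.75%), against 8.29% of all 27305 promoters and 6.46% of those of tested genes. Among effectors it was in 22 of 34 called higher, in both of those called lower and in 9 of 12 not called, so it did not separate those that rose from the rest. A match describes letters only and is not shown to be bound. IFI44L, IFI6 and PLSCR1 are the effectors called higher with the smallest p that hold it, and are shown 5′ to 3′ with each match in capitals.
IFI44L, chr1:78620198-78620497, plus strand: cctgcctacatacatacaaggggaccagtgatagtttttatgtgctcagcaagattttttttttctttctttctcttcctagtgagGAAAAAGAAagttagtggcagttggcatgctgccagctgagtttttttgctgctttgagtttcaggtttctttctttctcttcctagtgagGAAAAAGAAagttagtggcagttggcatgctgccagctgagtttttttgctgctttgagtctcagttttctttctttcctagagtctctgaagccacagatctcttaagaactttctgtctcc
IFI6, chr1:27672143-27672442, minus strand: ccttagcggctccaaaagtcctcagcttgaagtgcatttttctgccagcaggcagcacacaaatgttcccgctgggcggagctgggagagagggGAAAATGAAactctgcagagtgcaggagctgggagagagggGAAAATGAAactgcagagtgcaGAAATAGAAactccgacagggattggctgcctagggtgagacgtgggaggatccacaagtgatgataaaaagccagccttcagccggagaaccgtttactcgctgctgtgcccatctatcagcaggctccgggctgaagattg
PLSCR1, chr3:146544558-146544857, minus strand: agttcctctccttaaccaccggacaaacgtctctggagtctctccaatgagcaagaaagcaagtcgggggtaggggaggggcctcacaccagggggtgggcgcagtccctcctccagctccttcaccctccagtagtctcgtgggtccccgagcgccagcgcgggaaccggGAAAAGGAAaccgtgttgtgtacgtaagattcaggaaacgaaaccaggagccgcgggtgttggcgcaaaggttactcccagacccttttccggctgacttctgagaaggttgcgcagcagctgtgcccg

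In IFI44L the matches begin 164 and 73 bases before the start, in a stretch that is repeated within the window, in IFI6 156, 115 and 93 bases before it, and in PLSCR1 79 bases before it. IFI6, a mitochondrial and ER protein that limits cell death and viral replication, was 186, 313 and 308 CPM in the controls and 1456, 1384 and 1426 CPM with paclitaxel, a log2 fold change of 2.40 ± 0.17 (edgeR adjusted p = 3.01e-08). PLSCR1, a scramblase that amplifies the interferon response, was 47.7, 69.6 and 69.6 CPM and 222, 200.5 and 197 CPM, a log2 fold change of 1.73 ± 0.12. Both were higher in every paclitaxel library.

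Not all effectors rose, and the exceptions were chosen for mention after their values were seen. OASL, an antiviral protein related to the oligoadenylate synthetases, was 1152, 1792 and 1804 CPM in the controls and 532, 574 and 527 CPM with paclitaxel (-1.54 ± 0.15), and ISG20, an RNA exonuclease, was 324, 474 and 510.1 CPM and 123, 115 and 112 CPM (-1.91 ± 0.15). ISG15, the ubiquitin-like modifier, was 1338, 2198 and 2281 CPM and 1259.6, 1173 and 1322 CPM (-0.63 ± 0.18), a fall that was not called with the trends removed. IFIT1, IFIT2 and IFIT3, which sense viral RNA caps and scaffold signalling, were not called. IFIT1 was 82.1, 144 and 108 CPM and 127, 137 and 133 CPM, inside the spread of the controls, and of the fits that left out 1 library it was called higher in the one without control 2. Within the same list, MX1, a GTPase that blocks viral nucleocapsids, was 53.4, 90.9 and 105 CPM and 435, 394 and 427 CPM (2.34 ± 0.17).

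**Figure D3:**
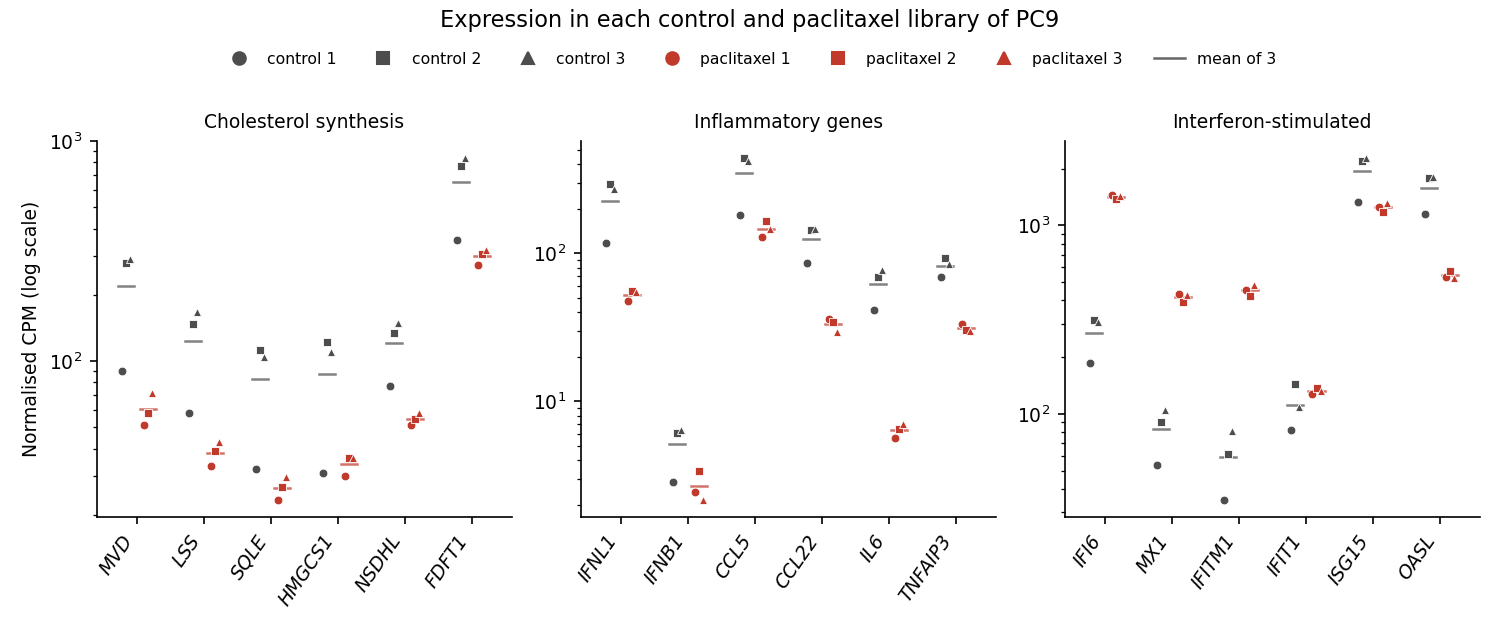
Normalised CPM (log scale) of 6 genes each of cholesterol synthesis, inflammatory signalling and interferon response in every control (grey) and paclitaxel (red) PC9 library, with a bar at each mean. IFI6, MX1 and IFITM1 are higher in all 3 paclitaxel libraries and OASL is lower, while for MVD, LSS, SQLE, HMGCS1, IFNL1 and CCL5 control 1 lies well below controls 2 and 3.

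Genes that sense nucleic acids and signal to interferon had a median near 0. Of 46 sensor and signalling genes 19 were higher and 16 lower, against 27.0% and 28.0% over all genes, with a median of -0.02, and 19 and 15 with the trends removed. STAT2 was 39.6, 53.5 and 57.3 CPM in the controls and 127, 118 and 129 CPM with paclitaxel (1.32 ± 0.11), and IRF7, the factor that amplifies type I interferon, 29.6, 42.2 and 45.3 CPM and 129, 129.5 and 151 CPM (1.81 ± 0.14). Both are interferon targets themselves. ZBP1, a sensor of left-handed nucleic acids that can trigger necroptosis, had 0, 1 and 0 reads in the controls and 26, 24 and 36 with paclitaxel, so it was at the limit of detection in the controls and present in every paclitaxel library. CGAS, the sensor of cytosolic DNA, fell from 21.8, 21.5 and 21.1 CPM to 15.7, 14.3 and 15.0 CPM (-0.51 ± 0.13). STING1, its partner, was 13.7, 12.1 and 11.6 CPM and 16.0, 14.1 and 15.7 CPM and was not called (edgeR adjusted p = 0.0707), but it was called higher at 0.55 with the trends removed.

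IFNL1, an interferon lambda of epithelial cells, was 117, 295 and 271 CPM in the controls and 47.4, 55.6 and 55.2 CPM with paclitaxel, a log2 fold change of -2.11 ± 0.24 (edgeR adjusted p = 5.61e-06). IFNB1, the first type I interferon made on sensing, was 2.87, 6.11 and 6.40 CPM and 2.46, 3.37 and 2.17 CPM (-0.91 ± 0.26). The groups were apart for IFNL1 and overlapped for IFNB1. In both, control 1 lay well below controls 2 and 3, and without it IFNL1 was at -2.43 and IFNB1 at -1.22, both still called. Both were detected in every control library, and of the 5 interferon genes tested 3 were called lower, IFNL3 being the other, and none higher. The call of IFNL3 was lost without paclitaxel 1.

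Several genes of antigen presentation were higher. In the MHC class I and peptide loading list 8 of 20 were higher and the rest not called without correction, and 11 were higher and 3 lower with the trends removed. HLA-E, the ligand of NKG2A on natural killer cells, was 308, 366 and 379 CPM in the controls and 555, 579 and 603 CPM with paclitaxel (0.72 ± 0.11). HLA-B was 231, 335 and 344 CPM and 435, 418 and 427 CPM (0.49 ± 0.13), while HLA-C was called only with the trends removed, at 0.45. B2M, the light chain shared by all class I molecules, was 611, 808 and 769 CPM and 715, 749.7 and 694 CPM and not called, but was called lower at -0.53 with the trends removed.

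Ligands read by immune cells were more often lower. Of 17 NKG2D and checkpoint ligands 10 were lower and 4 higher, with the same counts when the trends were removed. The genes were not all the same, as 8 were lower and 3 higher in both fits. RAET1L, a ligand of the activating receptor NKG2D, was 42.9, 71.1 and 67.1 CPM in the controls and 16.5, 17.8 and 12.8 CPM with paclitaxel (-1.94 ± 0.16). CD276, the checkpoint molecule B7-H3, was 224, 273 and 285 CPM and 112, 117 and 125 CPM (-1.14 ± 0.11). LGALS9, which encodes the lectin galectin-9, was 3.39, 5.64 and 5.70 CPM and 36.4, 36.5 and 40.8 CPM (2.97 ± 0.16), and ULBP1, another NKG2D ligand, was 2.66, 2.42 and 1.67 CPM and 8.24, 9.89 and 7.58 CPM (1.92 ± 0.20). The former pair was lower and the latter pair higher in every paclitaxel library. 

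Inflammatory genes were lower. NF-kB is a family of factors that switch on cytokines and their own inhibitors. Of 19 feedback genes and subunits 11 were lower and 1 higher, against 28.0% and 27.0% over all genes. Their median was -0.48, and -0.32 with the trends removed. Of 25 cytokines and chemokines 11 were lower and 3 higher, against the same shares, and 10 and 4 with the trends removed. TNFAIP3, the A20 inhibitor of NF-kB, was 69.7, 93.7 and 85.0 CPM in the controls and 33.5, 30.2 and 30.1 CPM with paclitaxel (-1.40 ± 0.11). RELB, a subunit, was 73.0, 97.7 and 102 CPM and 36.5, 39.2 and 39.2 CPM (-1.25 ± 0.12). Both were lower in all paclitaxel libraries and kept their call with the trends removed.

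IL6, an inflammatory cytokine that signals through STAT3, was 41.5, 68.9 and 77.5 CPM in the controls and 5.65, 6.53 and 7.09 CPM with paclitaxel, a log2 fold change of -3.28 ± 0.21 (edgeR adjusted p = 1.13e-08). IL11, of the same cytokine family, was 266, 316 and 323 CPM and 65.8, 59.0 and 59.3 CPM, a log2 fold change of -2.30 ± 0.14. Neither group came near the other. CCL5, a chemokine for T cells, was 182, 442 and 424 CPM and 129, 165 and 146 CPM (-1.25 ± 0.23), and CCL22, a chemokine for regulatory T cells, 86.5, 144 and 145 CPM and 36.2, 34.6 and 29.7 CPM (-1.90 ± 0.18). For CCL5 control 1 lay closer to the paclitaxel libraries than to the other controls. IL1B rose, at low levels, from 1.46, 1.01 and 1.46 CPM to 2.80, 3.85 and 3.59 CPM (1.37 ± 0.25).

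Enzymes of cholesterol synthesis were lower almost throughout. The pathway runs from HMGCS1 through MVD and FDFT1 to SQLE, LSS and the late enzymes DHCR7 and NSDHL, and is switched on by the factor SREBP2 when sterols are short. Of 21 enzymes tested 16 were called lower and 1 higher, with a median of -0.90, and with the trends removed 18 were lower and 0 higher, with a median of -1.05. The letters TCACNCCAC of a sterol response element were in 0 of 16 promoters of these genes in the same window, and in 1.15% of all 27305 promoters, so no promoter of them is shown. That says only that these letters are not in this window.

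Early in the pathway, HMGCS1 was 30.9, 122 and 109.8 CPM in the controls and 30.1, 36.4 and 36.1 CPM with paclitaxel (-1.35 ± 0.32), and MVD, which makes the isopentenyl unit, 89.7, 278 and 291 CPM and 51.4, 57.9 and 71.4 CPM (-1.86 ± 0.28). Further on, SQLE, which oxidises squalene, was 32.5, 112 and 104 CPM and 23.4, 26.7 and 29.7 CPM (-1.64 ± 0.30). NSDHL was 76.9, 135 and 149 CPM and 51.0, 54.8 and 57.9 CPM (-1.14 ± 0.17). In all of these control 1 was the lowest control, and for HMGCS1 it lay within the paclitaxel range.

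The size of the sterol fall depended on control 1. The median stayed below 0 in each fit that left out 1 library, but every such fit kept control 2, control 3 or both. Whether the fall holds against control 1 alone was therefore not tested. The summed level of the enzymes was 2274 to 4709 CPM in the controls and 1941 to 2124 CPM with paclitaxel. Without control 1, 18 enzymes were called lower with a median of -1.29, and without control 2 or control 3, 14 were, with medians of -0.70 and -0.78. ABCA1, which exports cholesterol and is switched on by LXR when sterols are plentiful, was 2.45, 1.01 and 1.18 CPM in the controls and 7.09, 6.16 and 6.01 CPM with paclitaxel (2.00 ± 0.34), and ABCG1, another exporter, 2.08, 1.61 and 1.95 CPM and 6.28, 6.65 and 6.70 CPM (1.79 ± 0.18). The exporters were higher in all paclitaxel libraries, and control 1 was the highest control for both. ACSS2, which makes acetyl-CoA for lipid synthesis, fell from 68.7, 162 and 171 CPM to 48.5, 51.9 and 51.5 CPM (-1.40 ± 0.22), and for it control 1 was again the lowest control.

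Messages of most listed targets of the EGFR and MAPK pathway were lower, while signalling itself was not measured. EGFR signals through RAS and ERK to early genes and to feedback inhibitors, and this signalling is constitutive in PC9. Of 32 targets 21 were lower and 3 higher, against 28.0% and 27.0% over all genes, with a median of -0.54 and of -0.39 with the trends removed. JUN, a subunit of AP-1, was 144, 149 and 152 CPM in the controls and 67.2, 61.9 and 63.7 CPM with paclitaxel (-1.21 ± 0.07), and FOSL1, its ERK-dependent partner, was 281, 190.0 and 196 CPM and 90.0, 80.4 and 91.5 CPM (-1.35 ± 0.14). SPRY4, a feedback inhibitor, was 36.2, 31.7 and 32.5 CPM and 18.6, 15.7 and 16.3 CPM (-0.99 ± 0.11). Each was lower in every paclitaxel library.

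FOS, in contrast, rose from 10.3, 19.6 and 22.7 CPM to 30.4, 33.2 and 27.0 CPM (0.80 ± 0.22), and KLF6 from 13.0, 12.5 and 12.7 CPM to 18.3, 16.4 and 16.5 CPM (0.43 ± 0.12). EGR1, an early gene, was 74.9, 119 and 113 CPM and 131, 111 and 105 CPM and was not called, but was called higher at 0.37 with the trends removed. Among the receptors, ligands and brakes of the ERBB family, the ligands AREG and HBEGF fell, AREG from 30.4, 29.7 and 26.1 CPM to 14.1, 13.4 and 14.7 CPM (-1.03 ± 0.12). ERRFI1, a direct inhibitor of EGFR, rose from 54.2, 64.5 and 62.1 CPM to 103, 98.0 and 91.7 CPM (0.69 ± 0.10). Of the other receptor kinases, MET rose from 17.7, 17.5 and 10.5 CPM to 42.0, 35.9 and 34.0 CPM (1.29 ± 0.18, 0.79 with the trends removed) and EPHA2 fell from 173, 155 and 162 CPM to 72.9, 63.6 and 72.3 CPM (-1.23 ± 0.10).

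Targets of FOXO factors, which are held out of the nucleus by AKT, mostly rose. Of 22 tested 17 were higher and 2 lower, against 27.0% and 28.0% over all genes, with a median of 0.72 that hardly moved on correction (0.68). In the BCL2 family, a separate list, 6 of 20 genes were higher and 8 lower, and 5 and 7 with the trends removed. From that list, BMF, a BH3-only protein that promotes death, was 13.5, 13.8 and 15.2 CPM in the controls and 27.3, 29.9 and 27.0 CPM with paclitaxel (0.99 ± 0.10). BCL2L11, which encodes BIM, rose less, from 18.2, 21.1 and 22.4 CPM to 29.5, 28.1 and 26.5 CPM (0.45 ± 0.10). PMAIP1, which encodes the BH3-only protein NOXA, fell from 42.5, 53.1 and 51.9 CPM to 25.2, 22.9 and 21.7 CPM (-1.08 ± 0.12), and BCL2L1, which encodes the survival protein BCL-xL, fell from 292, 283 and 294 CPM to 184, 181 and 181 CPM (-0.67 ± 0.09). The death ligand TNFSF10 rose while its receptor TNFRSF10A fell from 19.3, 20.2 and 18.7 CPM to 11.2, 10.2 and 10.8 CPM (-0.85 ± 0.13).

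Squamous genes were lower. Of 24 genes of the cornified envelope and squamous differentiation 16 were lower and 1 higher, against 28.0% and 27.0% over all genes. Their median was -0.72, and -0.64 with the trends removed. KRT6B, a keratin of activated epithelium, was 58.9, 66.9 and 72.0 CPM in the controls and 11.2, 8.72 and 9.21 CPM with paclitaxel (-2.76 ± 0.14). S100A8, a calcium-binding alarmin, was 12.4, 41.8 and 34.2 CPM and 3.99, 3.53 and 2.02 CPM (-3.19 ± 0.34). Paclitaxel libraries were below controls in each, although control 1 had less S100A8 than the others.

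Among all genes, other large falls were of G0S2, ROBO4, SCNN1D and BOLA2B. G0S2, an inhibitor of the lipase that breaks down stored fat, was 11.1 to 15.5 CPM in the controls and 0.934, 0.811 and 0.837 CPM with paclitaxel (-3.96 ± 0.24). SCNN1D, a subunit of a sodium channel, was 13.7, 14.9 and 13.8 CPM and 1.49, 1.58 and 1.53 CPM (-3.20 ± 0.23). BOLA2B was 3.86, 3.63 and 73.4 CPM and 2.29, 2.27 and 3.05 CPM, so only control 3 was high. It has a near-identical copy and its call was lost without that library. A few keratins rose from low levels, such as KRT13 from 1.25, 1.01 and 0.626 CPM to 5.35, 5.39 and 5.12 CPM (2.42 ± 0.30). SAA1, an acute-phase protein of airway epithelium, rose from 2.92, 2.82 and 3.34 CPM to 14.6, 14.6 and 14.8 CPM (2.28 ± 0.16).

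Targets of YAP and TEAD, which read cell tension and density, were lower in 10 of 21 and higher in 3, and in 10 and 4 with the trends removed. CCN1 fell from 105, 81.1 and 85.4 CPM to 51.4, 45.0 and 53.9 CPM (-0.86 ± 0.11), and NT5E, the surface enzyme CD73, rose from 110.5, 85.6 and 82.2 CPM to 197, 201 and 189.8 CPM (1.08 ± 0.13). Genes of actin contractility were lower in 17 of 38 and higher in 7, against 28.0% and 27.0% over all genes. With the trends removed 14 were lower and 8 higher, and the median of -0.20 became -0.08. TAGLN, an actin-binding protein, rose from 2.34, 3.49 and 3.55 CPM to 12.2, 9.61 and 13.3 CPM (1.92 ± 0.21), and ZYX, a protein of focal adhesions, fell from 235, 223 and 236 CPM to 131, 136 and 149 CPM (-0.74 ± 0.09).

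Of 23 cytosolic heat shock genes 13 were lower and 5 higher, against 28.0% and 27.0% over all genes, and 15 and 2 with the trends removed. HSPA8, the constitutive HSP70, was 1096, 934 and 945 CPM in the controls and 462, 457 and 471 CPM with paclitaxel (-1.10 ± 0.11). In the ATF4 programme of amino acid stress 13 of 33 were higher and 9 lower, the latter near the 28.0% called lower over all genes. With the trends removed the ATF4 counts were 17 and 6. NUPR1, a stress-induced regulator, was 5.11, 7.12 and 7.37 CPM and 21.3, 28.6 and 30.0 CPM (2.04 ± 0.22), whereas ATF3 fell from 28.2, 39.1 and 43.6 CPM to 14.3, 15.2 and 14.1 CPM (-1.34 ± 0.14). XBP1, the factor of the unfolded protein response, fell from 317, 416 and 412 CPM to 214, 204 and 191 CPM (-0.91 ± 0.10).

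Short, abundant housekeeping messages were lower, in the direction of the slope. In the top 10% of genes by mean CPM, 56.1% were called lower and 5.94% higher, and 44.1% and 15.3% with the trends removed. Of 83 cytosolic ribosomal protein genes 51 were lower and 1 higher, with a median of -0.40 that became -0.22. For mitochondrial ribosomal proteins 49 of 80 were lower, with medians of -0.34 and -0.23, and for the nuclear-encoded respiratory chain 37 of 76, with -0.25 and -0.09. The share of reads on ribosomal proteins was 14.3% to 14.7% in the controls and 11.9% to 12.8% with paclitaxel, without overlap. Genes named ZNF had a median GC content of 44.2%, against 49.8% over all genes tested, and a median length of 3788.5 bases, against 3365.5. Of 386 tested, 116 were higher, near the 27.0% over all genes, and 69 lower, against 28.0%. Their median of 0.23 became 0.02 with the trends removed. In the list of drug transporters and taxane metabolism 6 of 13 were higher and the rest were not called, and 7 were higher and 0 lower with the trends removed. ABCB1, which encodes the efflux pump P-glycoprotein, had 0 reads in the 6 libraries and was not detectable at this depth. ABCG2, another pump, was 11.8, 11.4 and 10.2 CPM and 16.3, 16.6 and 16.0 CPM (0.55 ± 0.13), and 0.04 with the trends removed, when it was no longer called.

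**Figure D4:**
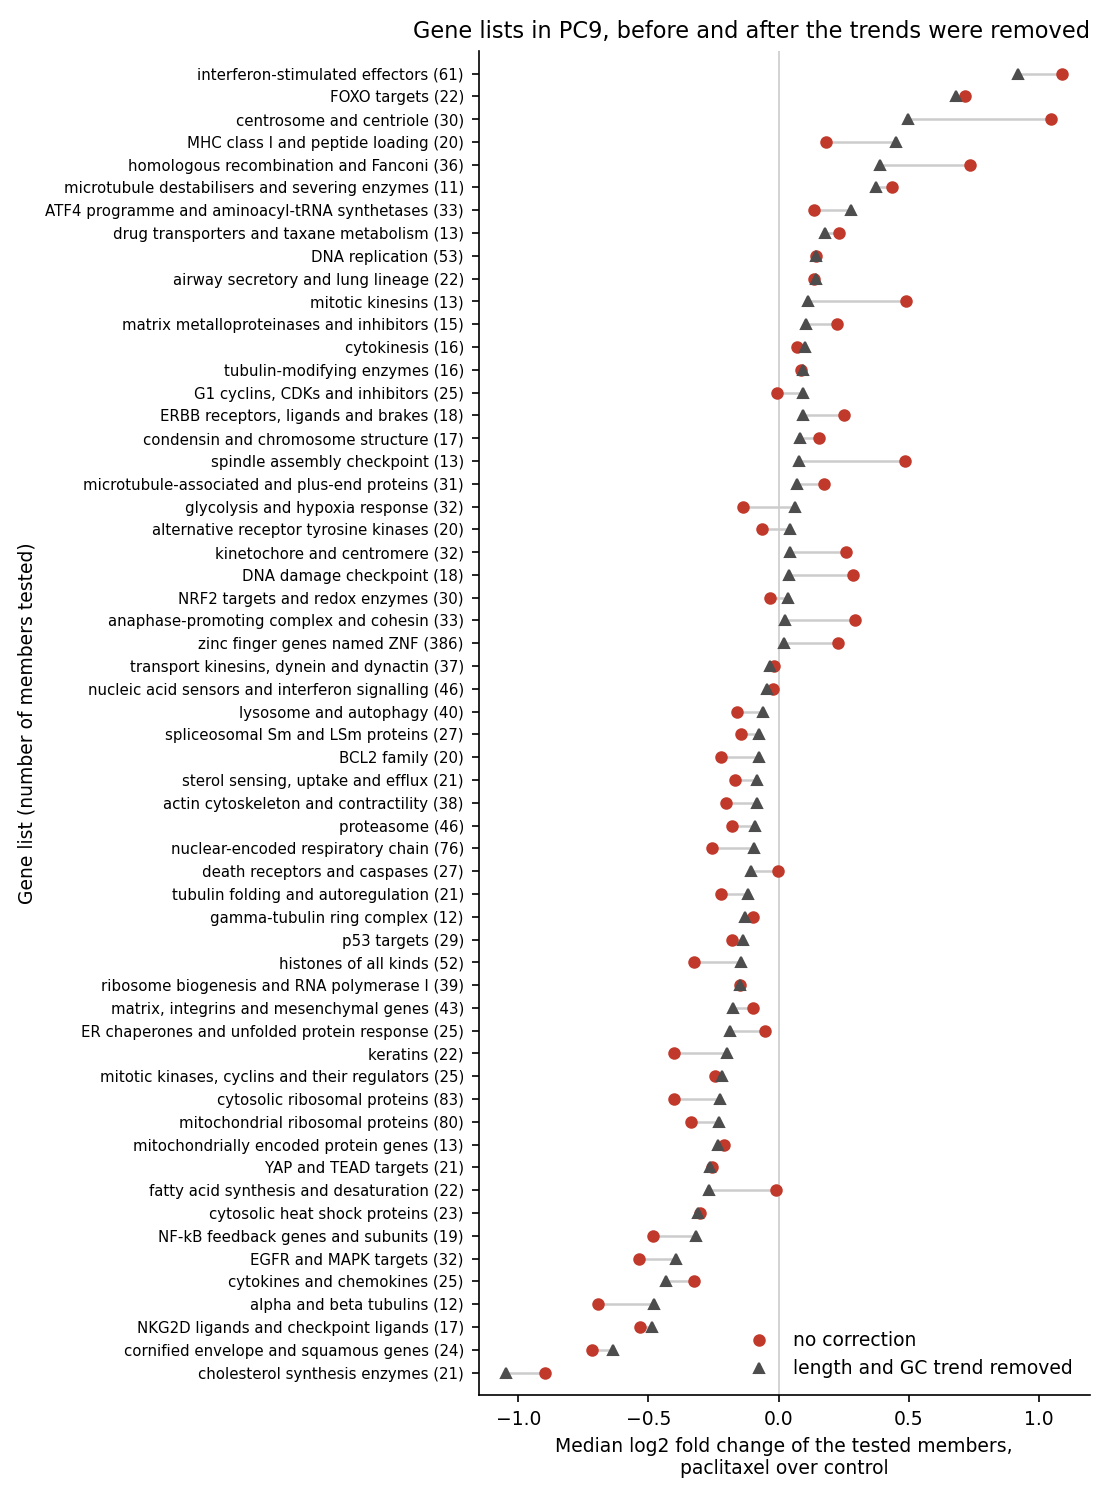
Median log2 fold change of paclitaxel over control for each gene list with at least 10 tested members (number in brackets), without correction (red circles) and with the length and GC trends removed (grey triangles). Interferon-stimulated effectors (1.09 and 0.92) and cholesterol synthesis enzymes (-0.90 and -1.05) stay at the ends of the range on both scales, while the lists of mitotic kinesins, the spindle checkpoint and ZNF genes move close to 0.

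Against almonertinib, the EGFR inhibitor, the direct comparison within PC9 called 2729 genes higher with paclitaxel (21.3%) and 2781 lower (21.7%). The third almonertinib library stood apart in its GC trend, at a Spearman's rho of 0.50 against -0.29 and -0.28 in the other libraries of its group, and without it 2680 and 2788 genes were called. The median of this comparison was 0.15 in the bin of lowest GC content and -0.41 in the highest. With length and GC trends removed, an alternative added after seeing the data, 2686 were higher and 3343 lower. Of the calls before, 2044 stayed higher and 2111 stayed lower, and 5 turned from lower to higher. The list counts below are without that correction. EGFR and MAPK targets were higher with paclitaxel than with almonertinib in 19 of 32 and lower in 3. AREG was 1.81 ± 0.234 CPM with almonertinib (mean ± SD, n = 3), and paclitaxel over almonertinib was 2.95 ± 0.15. KRT6A was 0.866 ± 0.233 CPM with almonertinib and 11.4, 13.3 and 12.5 CPM with paclitaxel, a difference of 3.83 ± 0.19, and HBEGF showed 2.82 ± 0.15. These genes thus fell with paclitaxel and lay lower still with almonertinib. The same paclitaxel libraries enter this comparison and the one with control.

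Few interferon effectors were higher with paclitaxel than with almonertinib. Of 61, 2 were higher and 22 lower, against 21.3% and 21.7% over all genes, with a median of -0.32. IFI6 was 1432 ± 247 CPM with almonertinib, and the difference of -0.01 ± 0.16 was not called (edgeR adjusted p = 0.966). TNFSF10 was 36.4 ± 6.40 CPM with almonertinib, and the difference was -1.33 ± 0.17, called lower with paclitaxel.

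Cholesterol enzymes were lower with paclitaxel than with almonertinib in 20 of 21 and higher in 0, with a median of -1.09. TM7SF2, a late enzyme of that pathway, was 273 ± 38.3 CPM with almonertinib and 49.8, 53.6 and 57.0 CPM with paclitaxel (-2.35 ± 0.29). DNA replication genes were higher with paclitaxel in 48 of 53 and lower in 1, with a median of 0.83. The ATF4 list was higher in 23 of 33 and lower in 1, and the NRF2 list lower in 20 of 30 and higher in 2. Over all genes 21.3% were higher and 21.7% lower in this comparison. KRT4, at 22.8 ± 3.07 CPM with almonertinib, and RASL11A, at 95.0 ± 14.7 CPM, were among the genes with the largest difference below almonertinib (-2.74 ± 0.16 and -2.24 ± 0.11).

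In H1975, at the higher dose of 1 nM, paclitaxel against control called 55 of 12345 genes higher (0.446%) and 24 lower (0.194%). The H1975 libraries scattered within their groups: rho with GC content was 0.31, 0.41 and -0.64 in the controls and -0.49, 0.05 and 0.17 with paclitaxel. The difference of the effects, PC9 minus H1975, was called in 1325 of 13380 genes as higher (9.90%) and in 965 as lower (7.21%). With DESeq2's size factors in place of TMM the numbers were 1043 and 1229, so the balance of directions depends on the scaling. Dose and line cannot be told apart in this difference.

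Interferon effectors moved in both lines. In H1975, 20 of 59 effectors tested in both lines were called higher and 0 lower, against the 0.446% called higher over all genes, with a median of 0.91. At an unadjusted p under 0.05, 44 were higher and 0 lower. IFI6 was 89.7, 71.3 and 97.0 CPM in the H1975 controls and 339, 434 and 501 CPM with paclitaxel (2.29 ± 0.20), and the difference between the lines was 0.12 ± 0.26 (edgeR adjusted p = 0.798). MX1 changed by 2.12 ± 0.24 there, differing from PC9 by 0.23 ± 0.30 (edgeR adjusted p = 0.644). A p that misses the threshold does not show that the lines respond alike.

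Other effectors differed between the lines. OASL rose in H1975 by 1.10 ± 0.16, from 43.4, 50.7 and 40.2 CPM to 105, 91.8 and 93.5 CPM, and fell in PC9, a difference of -2.63 ± 0.24. IFIT1 rose there by 1.90 ± 0.28 and was not called in PC9, a difference of -1.64 ± 0.34. IFITM1 rose in both lines, by 1.09 ± 0.15 in H1975, and more in PC9 by 1.86 ± 0.28. CCL5 rose in H1975, from 3.46, 3.27 and 2.46 CPM to 5.78, 6.67 and 6.37 CPM (1.02 ± 0.20), against its fall in PC9, a difference of -2.27 ± 0.34.

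**Figure D5:**
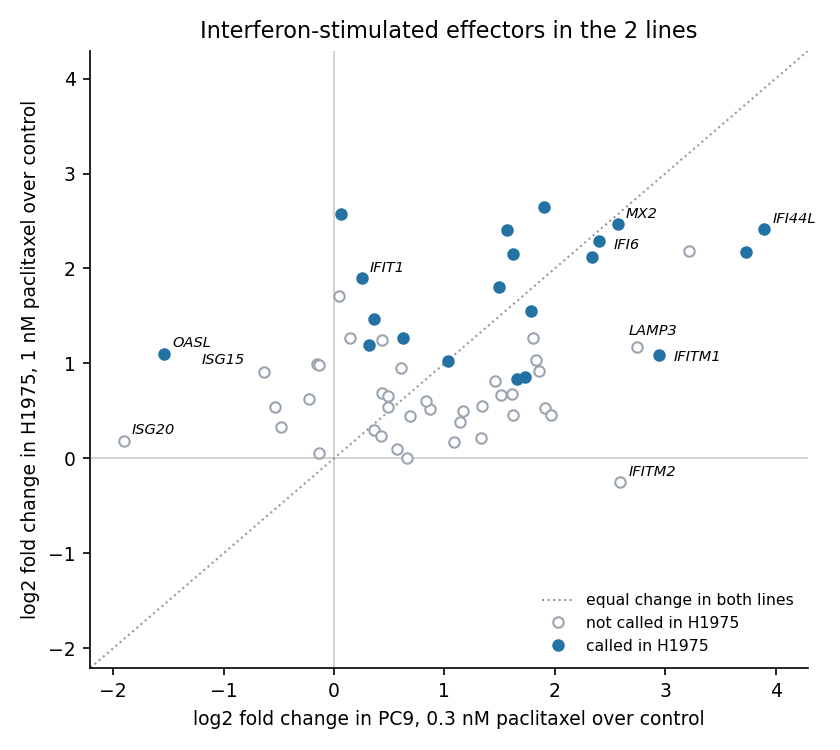
Log2 fold change of 59 interferon-stimulated effectors in PC9 with 0.3 nM paclitaxel (horizontal) and in H1975 with 1 nM (vertical), with filled points for the 20 genes called in H1975 and a dotted line of equal change. IFI6 and MX2 lie near that line, IFITM2 and IFITM1 lie below it, and OASL and ISG20 are negative in PC9 and positive in H1975.

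Cholesterol enzymes were not called in H1975. By edgeR, 0 of 21 passed the adjusted p and 4 were lower at an unadjusted p under 0.05, and the median was -0.25. The difference between the lines was called lower in PC9 for 6 of them, among them MVD (-1.54 ± 0.38) and LSS (-1.80 ± 0.34), and not for SQLE (-0.90 ± 0.38, edgeR adjusted p = 0.1) or HMGCS1 (-0.54 ± 0.42, edgeR adjusted p = 0.391). CDC20 was 565, 600.2 and 420.0 CPM in the H1975 controls and 515, 525 and 504 CPM with paclitaxel, not called, and the lines differed by -0.99 ± 0.26. KIF20B, a kinesin of cytokinesis, showed a difference of 2.16 ± 0.55. Centrosome and centriole genes differed between the lines, with 17 of 30 called higher in PC9 and 0 lower, a list whose uncorrected median also ran with the GC slope. For the tubulins the difference was called lower in 1 of 12, which was TUBB6, and higher in 0, a share close to the 7.21% called lower over all genes.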

How the data were processed

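RNA was extracted with TRIzol and made into libraries with a SMART-RNAseq kit, per the labels' protocols. The deposited values are raw read counts of 19702 Ensembl genes. HISAT2 2.2.1, HTSeq and GRCh38 were used, per the submitters' processing notes, while the gene annotation and the strand setting of the counting are not given in the sources used here. If strand was ignored, reads of overlapping genes cannot be told apart.

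Counts were tested with edgeR 4.0.16 in R 4.3.3 (filterByExpr, TMM, quasi-likelihood), with the 12 PC9 libraries in 1 fit so that all 4 PC9 groups shared the estimate of spread. H1975 effects came from the same kind of fit on its own libraries, and the difference between lines from a fit on all 24. Benjamini-Hochberg adjusted p under 0.05 was called. Standard errors were derived from the F statistic and are approximate. The transcript length and GC trends were removed with a spline offset of 5 degrees of freedom per library, from the GENCODE v29 annotation. The fits without correction and with length alone removed were run on simulated counts, which held no length or GC trend. The fit with both trends removed was not run on them, so how far it spares real changes was not tested. Alternatives used DESeq2 1.42.0, other filters, scalings and sets of libraries.

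The comparison and the gene lists were chosen with earlier results of these data known. Genes are named by rule: the 10 largest called rises and falls with a mean of at least 5 CPM and no overlap, the 5 largest against the length trend, up to 2 called members of smallest p in each direction per list (or the most abundant member where none was called), every tubulin, and the 5 largest in each direction of the other comparisons. MX1, MX2, IFI6, PLSCR1, ISG15, IFIT1 to IFIT3, STAT2, IRF7, ZBP1, CGAS, STING1, IFNB1, IFNL3, CCL5, HLA-B, HLA-C, B2M, HMGCS1, SQLE, MVD, FDFT1, FOSL1, SPRY4 and EGR1 were instead chosen after their values were seen. Not every gene or list so selected is described, and some genes are not reported here. Promoter sequences are from RefSeq, GRCh38.p14.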

Additional observations from a re-analysis of the deposited data

Results flagged for a closer look

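The effect of paclitaxel differed between PC9 and H1975, by the test of the difference itself, in 1325 genes as higher and 965 as lower in PC9. The following named genes were among them, each given as the log2 effect in PC9 minus that in H1975. Higher in PC9 were IGFBP3 (3.23), IFITM2 (2.84), ULBP1 (2.67), PNPT1 (2.65), TMEM156 (2.52), SLC15A3 (2.16), LGALS9 (2.01), IFITM1 (1.86), LAMP3 (1.59), XAF1 (1.56) and IFI44L (1.48). In H1975 IGFBP3 was 24.5, 19.0 and 102 CPM in the controls, so control 3 was high there.

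Lower in PC9 by less than 3 log2 units were TUBB6 (-0.62), HBEGF (-0.74), CLIC3 (-1.34), CCL22 (-1.35), ZC3HAV1 (-1.89), FN1 (-2.09), SNPH (-2.25), PLCG2 (-2.49), ROBO4 (-2.63), COL17A1 (-2.77) and IL6 (-2.98). Lower by more were BOLA2B (-3.10), SCNN1D (-3.36), G0S2 (-3.60), SPRR1B (-4.14), IGF2BP1 (-4.16), NCCRP1 (-4.28), AKR1C2 (-4.34), SPRR1A (-4.95) and KRT34 (-6.51). KRT34, SPRR1A, AKR1C2, NCCRP1, IGF2BP1 and TMEM156 were at or near 0 in the H1975 libraries, so these fitted differences depend on the prior count. The calls of AKR1C2, IGF2BP1, NCCRP1 and SPRR1A were each lost when any of several libraries was left out, and that of KRT34 without H1975 paclitaxel 3. BOLA2B was high only in PC9 control 3.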

How the results depend on the processing

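When all 24 libraries shared the estimate of spread, 2871 genes were called higher with paclitaxel and 2187 lower, against 3450 and 3588. Tested against a 1.5-fold change, 1018 genes were higher and 444 lower. DESeq2 called 3262 higher and 3710 lower, and a fit of only the 6 libraries 4033 and 3708. Leaving out each library of the comparison gave 2793 to 3301 higher and 2732 to 3261 lower, and a fit without almonertinib library 3, added after seeing the data, gave 4046 and 4022. Against almonertinib the ranges were 2299 to 2837 higher and 2074 to 2933 lower.

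The line difference was less stable. With length and GC trends removed, an alternative added after seeing the data, it was called higher in 1630 and lower in 1866 genes. Leaving out each library gave 540 to 1676 higher and 526 to 1299 lower, with 698 and 530 without PC9 control 3, 826 and 587 without PC9 paclitaxel 2, 591 lower without PC9 paclitaxel 1, 540 and 573 without H1975 control 3, 693 and 626 without H1975 paclitaxel 2, and 771 and 526 without H1975 paclitaxel 3. The cause was not tested.

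TUBA1A, not called, changed sign: 0.048 with the length trend removed, 0.020 with a stricter filter, 0.0053 with only the 6 libraries, 0.19 with length and GC removed, 0.057 and 0.19 when the replicate block was added to these 2 corrections, and -0.26 to 0.14 when 1 library was left out, above 0 without control 2, control 3 or paclitaxel 1. With length and GC removed, and then with the replicate block added, NEDD1 was -0.18 and -0.18, VBP1 -0.10 and -0.10, RFXANK 0.036 and 0.038, ERO1A -0.033 and -0.030, NDUFA5 -0.019 and -0.022, RPL22 -0.00171 and -0.001891, MRPL42 -0.20 and -0.21, and LSM8 -0.28 and -0.27, against the opposite sign without correction.

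Same-numbered control and paclitaxel libraries had correlated deviations of 0.124, 0.116 and 0.0956, each library correlating best with its own number. Those of different numbers lay between -0.0895 and -0.0127. The labels do not tie the numbers, so the libraries were not treated as paired. With the replicate block 3728 genes were higher and 3841 lower, 3120 and 4409 with the length trend also removed, and 2940 and 3806 with length and GC removed.

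Depth limits genes of few reads, such as TUBB4A, TUBB2B and ZBP1. With 3 libraries a group, a p that misses the threshold does not show equal levels. The GC and length slopes follow the groups, so values of AT-rich or GC-rich genes depend on whether they are removed.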
